A study of Mus musculus with 4 samples.

Results

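Mediator is a large protein complex that stands between transcription factors bound at enhancers and RNA polymerase II at promoters, and it is needed for the transcription of most protein-coding genes. Its head and middle modules contact the polymerase, the scaffold subunit MED14 runs through the complex, the tail takes contacts from activators, and a separable kinase module, built on a cyclin and its kinase, controls whether the rest of the complex can hold the polymerase. In mouse embryonic stem (ES) cells the complex is known for its work with cohesin at the enhancers of pluripotency genes. The 32 Mediator genes were taken as a fixed list of subunit names. The list was not selected by a measured value, but it was chosen with earlier results of these data known. All 32 members were found among the 46078 genes counted. They comprise 7 genes of the head, 9 of the middle, 1 of the scaffold, 9 of the tail and 6 of the kinase module. The last group includes the vertebrate paralogs Cdk8 and Cdk19, which encode the kinase, and Med13 and Med13l, which encode the subunit that joins the module to the core.

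The study asked how cell division relates to exit from naive pluripotency, and these data are single-cell RNA sequencing of wild-type E14 mouse ES cells, a line in long-term culture. Cells were grown in 2i, a medium in which inhibitors of MEK and GSK-3 hold them in the naive state, and were sorted by forward and side scatter into a small gate, which takes cells at the end of mitosis and in G1, or with no size gate. Cells of either gate were returned to 2i or moved to N2B27 for 6 h. By the paper's methods the naive medium also held leukemia inhibitory factor (LIF). N2B27 is the same basal medium without the inhibitors or LIF, in which the cells start to differentiate. They were then sorted singly into plates. Each of the 4 samples (2i small, 2i ungated and the corresponding N2B27 small and N2B27 ungated) comprised 24 cells, of which 12, 22, 20 and 21 passed quality limits. There was 1 sample per group and cells of a sample are not replicates, so no test was made and each difference below compares 2 samples, not conditions. All 2i cells were on 1 plate and lane and all N2B27 cells on another, so medium and plate cannot be told apart.

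Kept cells had 1364155 to 4844170 counts on genes. All 9 ES cell markers checked had counts in every sample, and the summed level of 5 fibroblast feeder markers did not exceed 0.375 CPM (counts scaled to the same total in each cell) in any cell. The samples differed in ways that touch every result below. Spike-in RNA took a median of 3.47% of counts in 2i small and 2.45% in N2B27 small cells, against 1.28% and 1.14% in the ungated cells of the same media, and the small gates held 6 cells assigned to G1 each, against 0 in 2i ungated and 2 in N2B27 ungated. One 2i small cell stood furthest apart, with 40.9% of counts on spike-ins and a size factor of 0.133 where the other cells of that sample had 0.532 to 2.60. Ratios given below that changed sign or call without it are also given without it. Others of that sample had 17.1%, 16.7% and 11.1% on spike-ins, against at most 2.42% in 2i ungated cells, and were not left out with it.

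The promoters of 4 members are shown because their transcripts differed between samples, a choice made after the values were seen: Med31 and Ccnc, with higher means in N2B27 small cells, and Med17 and Med22, with lower means. For Med22 few cells were involved, with counts in 2 of 20 N2B27 small and 6 of 12 2i small cells. Each run is 300 bases from RefSeq on build GRCm38.p6, 250 before and 50 after the annotated start, read 5′ to 3′ on the strand of the gene, and capitals mark the short motifs described below. The Med31 window is chr11:72215543-72215842 on the minus strand, that of Ccnc is chr4:21727451-21727750 on the plus strand, that of Med17 is chr9:15279857-15280156 on the minus strand and that of Med22 is chr2:26910593-26910892 on the minus strand.
Med31: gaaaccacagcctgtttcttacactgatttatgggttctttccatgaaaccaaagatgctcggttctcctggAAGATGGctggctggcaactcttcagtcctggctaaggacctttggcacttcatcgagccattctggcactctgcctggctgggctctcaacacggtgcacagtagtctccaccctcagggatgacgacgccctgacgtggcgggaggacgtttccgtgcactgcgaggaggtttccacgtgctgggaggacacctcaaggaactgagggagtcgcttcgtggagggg
Ccnc: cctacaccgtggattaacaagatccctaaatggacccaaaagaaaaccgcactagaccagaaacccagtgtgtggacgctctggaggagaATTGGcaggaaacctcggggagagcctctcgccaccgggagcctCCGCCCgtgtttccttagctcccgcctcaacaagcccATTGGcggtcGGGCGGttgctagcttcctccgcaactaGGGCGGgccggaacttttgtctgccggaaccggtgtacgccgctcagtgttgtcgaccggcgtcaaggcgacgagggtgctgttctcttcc
Med17: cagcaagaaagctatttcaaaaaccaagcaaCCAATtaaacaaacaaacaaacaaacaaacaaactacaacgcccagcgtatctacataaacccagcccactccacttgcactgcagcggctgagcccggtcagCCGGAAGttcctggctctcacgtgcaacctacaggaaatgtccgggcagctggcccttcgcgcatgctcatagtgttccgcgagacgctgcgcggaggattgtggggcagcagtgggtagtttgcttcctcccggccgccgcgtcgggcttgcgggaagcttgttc
Med22: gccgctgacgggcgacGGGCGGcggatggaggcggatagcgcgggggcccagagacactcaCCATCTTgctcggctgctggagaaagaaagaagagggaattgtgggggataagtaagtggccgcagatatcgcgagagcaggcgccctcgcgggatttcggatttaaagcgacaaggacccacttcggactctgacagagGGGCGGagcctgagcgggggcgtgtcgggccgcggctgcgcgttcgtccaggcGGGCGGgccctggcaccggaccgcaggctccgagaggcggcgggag

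In these windows Ccnc held 3 copies of the GC box letters (GGGCGG or CCGCCC, which SP and KLF factors can bind) and 2 of CCAAT or ATTGG, the letters of the NF-Y box. Med22 held 3 GC boxes and 1 YY1 match (AAGATGG or CCATCTT), Med31 held 1 YY1 match, and Med17 held 1 CCAAT and 1 ETS match (CCGGAAG or CTTCCGG, a core that ETS factors recognise). The pair with higher means shared none of these letters with each other. RefSeq windows were found for 27 of the 32 members, with 31 windows in all, and not for Cdk19, Med8, Med23, Med24 and Med30. Searched on both strands, the ETS letters were in 29% of the member windows and in 8.86% of the 32851 windows of all genes, and the GC box in 61.3% and 35.7%. CCAAT was in 38.7% and 37.4%, the YY1 letters in 12.9% and 6.34%, TATAAA in 9.68% and 13.6%, and the NRF1 palindrome in 0 of 31 against 0.971%. The members with ETS letters were Med4, Med6, Med10, Med14, Med15, Med17, Med18 and Med19, which lie in the head, middle, scaffold and tail. Median GC content was 57.7% in the member windows and 52.7% in all windows. These are matches of letters, and binding was not measured.

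Mediator transcripts were present in all 4 samples, at levels that spanned more than 100-fold between subunits and were lowest in the kinase module. Levels between genes were compared as TPM, the summed counts of a sample divided by annotated exon length and scaled to the same total in each sample. As the mean of the 4 samples, Med11 (129 TPM) and Med6 (128 TPM) of the head were highest, followed by Med29 of the tail (92.8 TPM), Med4 of the middle (86.5 TPM) and Med8 of the head (83.1 TPM). Med31, Med30 and Med28 lay between 72.0 and 74.9 TPM, and their order is not meaningful against the spread between samples. The module medians were 41.6 TPM for the head, 41.6 TPM for the middle, 21.5 TPM for the tail and 0.999 TPM for the kinase module. In the kinase module Ccnc, which encodes cyclin C, had 19.2 TPM, whereas Cdk8 had 1.64, Med12 1.16, Med13l 0.837, Cdk19 0.782 and Med13 0.549 TPM. Among members with a count outside that module, the lowest levels belonged to Med23 (2.16 TPM), a tail subunit that takes signals from ERK-responsive activators, and to the scaffold gene Med14 (4.60 TPM).

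**Figure D1:**
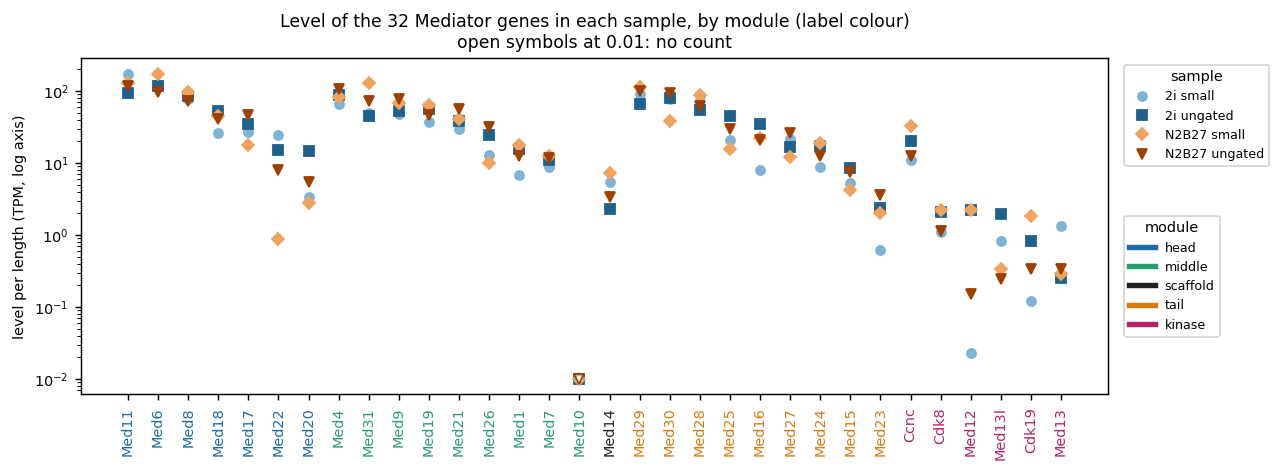
Level of each of the 32 Mediator genes in the 4 samples, in TPM on a log axis, with genes grouped by module and ordered by mean level within it. The kinase genes other than Ccnc have the lowest means over the samples, Med22 and Med12 show the widest gaps between samples, and Med10 has no count.

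Exon length was set against level. It is also the divisor of TPM, so a negative relation is partly built in. Across the 31 members with a count, Spearman's rho between exon length and TPM was -0.82, and it was -0.68 across 8713 genes with a mean of at least 20 normalised counts over the 4 samples (tested genes below). This is a description across genes, which share the libraries and are not independent. The 17 members with fewer than 5000 exon bases had a median of 51.2 TPM and the 14 longer ones one of 5.50 TPM, beside 39.1 and 7.22 TPM for tested genes split in the same way. Ccnc has 5115 exon bases, Cdk8 9832 and Med13l 15427.

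**Figure D2:**
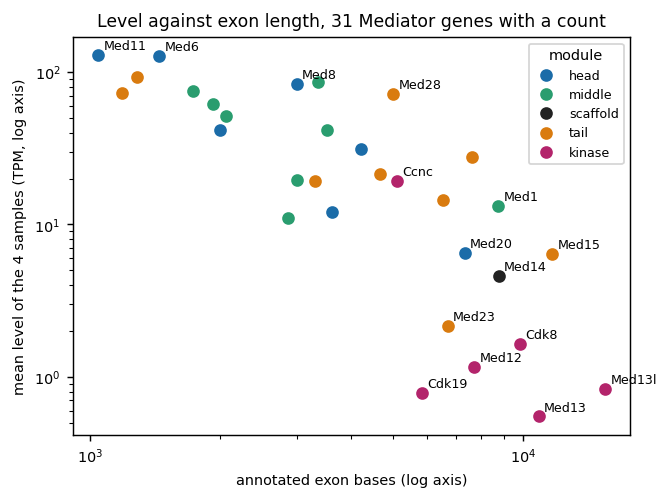
Mean level of the 31 Mediator genes with a count (TPM, log axis) against annotated exon bases (log axis), coloured by module. Levels fall from Med11, with 1046 exon bases and 129 TPM, to Med13 and Med13l, with 10840 and 15427 exon bases and under 1 TPM.

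Med10, a middle subunit conserved from yeast, had 0 counts in every sequenced cell. Of its 4491 annotated exon bases (13:69802395-69816104, plus strand, GRCm38), 4168 (92.8%) also lie in exons of Gm26819 in the later annotation used here, and reads that overlap 2 genes were not counted by the authors' counter. It is listed at 0 only, and it was left out of ratios. Smaller shares of exon bases overlapped other genes for Med20 (28.4%), Med31 (26.3%), Med7 (21.2%), Med21 (15.5%), Med19 (12.9%) and Med26 (12.7%), whose levels may be understated.

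Single cells held counts for only part of the subunits. With every cell thinned to 1300000 counts, a median of 17 of 32 members had a count in 2i small cells, 24 in 2i ungated, 17 in N2B27 small and 21 in N2B27 ungated cells. Over all pairs of a member and a cell, 53.6%, 74.7%, 54.2% and 60.7% had a count, and without thinning 57.0%, 78.6%, 59.8% and 65.3%. Genes of like level are the 10571 genes whose mean lay between those of the lowest member with a count and the highest member. For these, listed by sample as above and thinned, 48.3%, 63.3%, 44.5% and 52.6% of the pairs had a count. Both small gates, which had the larger spike-in shares, had fewer members detected per cell than the ungated cells, as did genes at large. The 2i small cell with 40.9% of counts on spike-ins had 7 members and another 2i small cell, with 0.0673% on spike-ins, had 30. The latter had 15712 genes detected, where the median of 2i small cells was 7603 and the most in a 2i ungated cell was 10335. Whether less RNA per cell or fewer expressing cells lies behind a lower count was not tested.

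**Figure D3:**
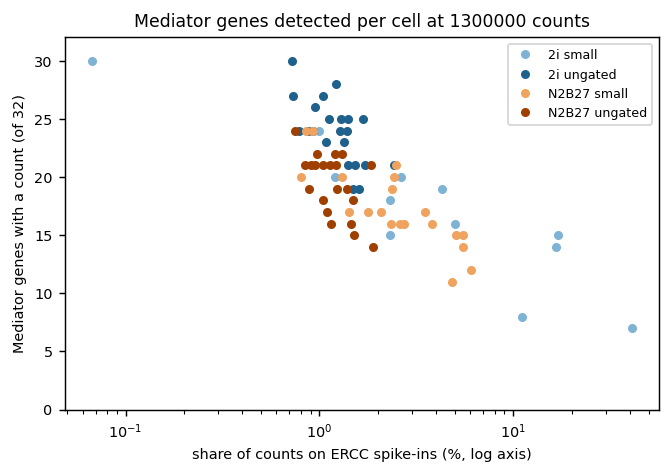
Number of the 32 Mediator genes with a count in each kept cell, thinned to 1300000 counts, against the share of counts on ERCC spike-ins (log axis), coloured by sample. Cells with large spike-in shares, mostly from the small gates, had the fewest members, down to 7.

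Med28 and Med4 had a count in the same, high number of cells. Med28, a subunit placed here with the tail, had counts in 22 of 22 cells of 2i ungated (exact binomial 95% interval 84.6 to 100%), 20 of 20 of N2B27 small, 21 of 21 of N2B27 ungated and 10 of 12 of 2i small. Intervals here and below cover counting error only. Med25, a tail subunit contacted by nuclear receptors and other activators, had a count in all 22 cells of 2i ungated but in 9 of 12, 18 of 20 and 19 of 21 of the others. The coefficient of variation over cells, taken as the median of the members with a count, was 1.65 in 2i small, 0.881 in 2i ungated, 1.62 in N2B27 small and 1.23 in N2B27 ungated cells, beside 2.03, 1.25, 2.22 and 1.71 for genes of like level. Members together took a median of 0.168% of a cell's counts in 2i small, 0.175% in 2i ungated, 0.214% in N2B27 small and 0.184% in N2B27 ungated cells. The ranges over cells overlapped, from 0.0520 to 0.284% in 2i small and from 0.111 to 0.302% in N2B27 small cells.

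After release from 2i, N2B27 small cells were compared with N2B27 ungated cells, by the log2 ratio of mean normalised counts with 1 added. The 2 samples also differed in assigned phase and spike-in share, so cell size cannot be told apart from these. As a group the Mediator genes did not move one way: 17 of the 31 members with a count were higher in small cells and 14 lower, with a median log2 ratio of 0.19, where the median of 8730 tested genes was -0.12 and 55.2% of them were lower. A ratio of 2-fold or more was seen for 8 members, 4 higher and 4 lower, beside 29% of tested genes and 39.5% of genes of like level. Of the 25 members with a mean of at least 20, which are the ones to set against tested genes, 6 were past 2-fold. The 4 higher were Ccnc, Med14, Med12 and Cdk19, and the 4 lower Med17, Med22, Med26 and Med30. Med12 and Cdk19 were seen in few cells and are described with their module.

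Ccnc, the cyclin partner of CDK8 and CDK19, had a mean of 255 normalised counts in N2B27 small and 89.7 in N2B27 ungated cells, with medians over cells of 233 and 18.7. It had counts in 16 of 20 and 15 of 21 cells, and the cells' ranges of 0 to 1347 and 0 to 451 overlapped. The log2 ratio was 1.50 and kept its sign in 16 of 16 alternative treatments of the data, but it was 0.08 over S phase cells alone (11 and 4 cells). Med14, the scaffold, had means of 100 and 38.2, with counts in 11 of 20 and 8 of 21 cells and a log2 ratio of 1.37. A single cell held 43.9% of the normalised counts of Med14 in the small sample, and the ratio was 1.10 without the highest cell of each sample and 0.55 without the cell of highest spike-in share of each. Med31, a conserved middle subunit, had means of 312 and 158 and medians of 298 and 118, and a log2 ratio of 0.98. These 3 were the highest by the rule for named genes, which asks for a mean of at least 20 and a count in 50% of the cells of the higher sample.

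Med17, the central subunit of the head, had the lowest ratio by that rule. Its mean was 87.9 in N2B27 small and 252 in N2B27 ungated cells, and its median 1.35 and 187. Counts were found in 13 of 20 small cells and in 18 of 21 ungated ones, and the cells' ranges of 0 to 585 and 0 to 1280 overlapped. The log2 ratio of -1.51 kept its sign and stayed past 2-fold in 16 of 16 alternatives, from -2.46 to -1.23. Med30, a subunit of the head and tail border found in animals but not in yeast, had means of 61.8 and 142 and a log2 ratio of -1.18, with the same sign in 16 of 16. Med26, which recruits elongation factors to the complex, had means of 43.3 and 113 and a ratio of -1.37, but of 0.83 in S phase cells alone.

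**Figure D4:**
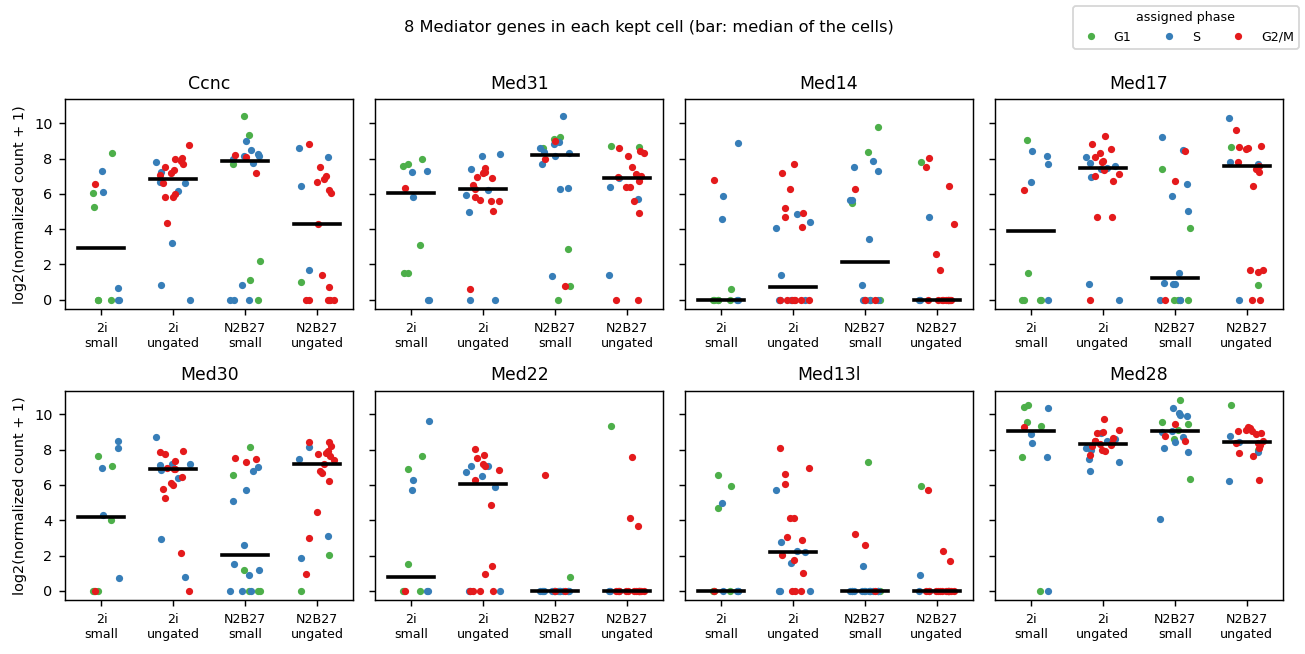
Normalised counts of 8 Mediator genes in each kept cell as log2(count + 1), by sample, with points coloured by assigned cell-cycle phase and a bar at the median. Ccnc and Med31 have their highest medians in N2B27 small cells, and Med17 and Med30 their lowest there. Med28 has higher medians in both small samples than in the ungated ones.

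In 2i, where cells stay naive, the same gate gave a different picture. Of 31 members 9 were higher and 22 lower in small than in ungated cells, with a median of -0.59 beside -0.36 for tested genes, of which 61.9% were lower. At 2-fold there were 4 higher and 10 lower members, 14 in all, beside 44.1% of tested genes and 49.8% of genes of like level, and 10 of the 25 members with a mean of at least 20. Without the cell of highest spike-in share, the numbers were 10 higher and 21 lower, 4 and 8 past 2-fold, a median of -0.46 and a background of 37.1%. This comparison rested on only 12 small cells.

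The members with the lowest ratios in 2i small cells were Med23, with a mean of 3.72 against 24.3 and a log2 ratio of -2.42, Med20, with 29.2 against 122 and -2.03, and Med16, with 51.9 against 201 and -1.94. Med20 belongs to the movable part of the head and Med16 to the outer tail. Med16 was detected in 4 of 12 small cells and 19 of 22 ungated cells, and 1 cell held 97% of its normalised counts in the small sample. Med1, the middle subunit that binds nuclear receptors, had means of 62.8 and 171, a ratio of -1.43 and counts in 8 of 12 and 21 of 22 cells. Ccnc had 61.4 against 133, a log2 ratio of -1.10, so that it was lower in small cells of 2i and higher in small cells of N2B27. Without the 2i small cell of highest spike-in share, the 2i ratio of Ccnc was -0.98, under 2-fold. With size factors from the spike-ins, which moved the median of all tested genes in 2i from -0.36 to 0.79, the ratios of Ccnc (1.26), Med1 (0.33), Med20 (0.36) and Med23 (0.41) turned positive.

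The members with the highest ratios in 2i small cells were Med8, Med11 and Med27. Med8, a head subunit, had a mean of 825 against 320 and a log2 ratio of 1.36, and 1 cell with 6050 normalised counts held 61.1% of its sum. That was the cell with 40.9% of counts on spike-ins, and without it the mean was 350.2 and the ratio 0.13. Med11 of the head had 398 against 133 and a ratio of 1.58, and Med27 had 214 against 77.5 and a ratio of 1.46. Without the highest cell of each sample these were 0.98 and 0.72. The highest 2i small cells were those with 17.1% and 16.7% of counts on spike-ins, at 2236 and 1047 for Med11 and 996 and 1332 for Med27. As means of log2 values over cells, the 3 ratios were -1.59 for Med8, -0.10 for Med11 and -1.37 for Med27. The sign of these ratios turned with the way cells were averaged.

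Small and ungated cells of the 2 media share no sample, so directions could be compared. In 17 of 31 members the direction was the same in both media, beside 62.4% of tested genes, and in 18 without the 2i small cell of highest spike-in share, when Med6 joined those higher. Lower in small cells in both media were Med4, Med9, Med15, Med16, Med17, Med20, Med21, Med23, Med25, Med26 and Med30, of which 5 belong to the tail. Of these Med16 had the same mean in both N2B27 samples (138 each). Higher in both were Med7, Med8, Med11, Med14, Med28 and Med29. Med25, for example, had means of 207 against 418 in 2i and 157 against 293 in N2B27, and its log2 ratios were -1.01 and -0.90. Without the 2i small cell of highest spike-in share, its ratio in 2i was -0.885, under 2-fold. No kinase member had the same direction in both media.

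Between media, small cells of N2B27 were compared with small cells of 2i. Members were higher in N2B27 for 20 and lower for 11 of 31, with a median of 0.56 beside 0.09 for tested genes, of which 46.9% were lower. Past 2-fold were 9 higher and 5 lower members, beside 41.5% of tested genes and 49.7% of genes of like level, and 9 of the 25 members with a mean of at least 20. Without the 2i small cell of highest spike-in share there were 19 higher and 12 lower members, again 9 and 5 past 2-fold, a median of 0.44 and a background of 35.6%. In the head 3 of 7 members were higher, with a median of -0.53, and without that cell 4 of 7, with 0.21. In the tail 5 of 9 were higher, with a median of 0.009, and without that cell 3 of 9, with -0.12. In the middle module 7 of 8 members with a count were higher, with a median of 0.70. With size factors from the spike-ins 0 of 8 were higher, with a median of -1.56, that of all tested genes. The 3 with the highest ratios by the rule were Ccnc, with means of 255 and 61.4 and a log2 ratio of 2.04, Med31, with 312 and 91.2 and a ratio of 1.76, and Med1, with 189 and 62.8 and a ratio of 1.58. With the spike-in size factors these ratios were -1.21, -0.88 and -1.0, all 3 less negative than that median. Ccnc and Med31 had more counts per cell at the median in N2B27 small cells, 233 against 18.5 and 298 against 67.1. The median of Med1 went the other way, 1.76 against 11.3, and its ratio of means was 1.61 without the highest cell of each sample.

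The lowest ratio was that of Med22, a small head subunit. Its mean was 4.77 in N2B27 small and 104 in 2i small cells, a log2 ratio of -4.18, which stayed negative and past 2-fold in 16 of 16 alternatives, from -7.54 to -2.78. Med22 had counts in 2 of 20 N2B27 small cells (10%, interval 1.23 to 31.7%) and 6 of 12 2i small cells (50%, 21.1 to 78.9%). A 2i small cell with 11.1% of counts on spike-ins held 64.1% of the normalised counts of Med22 in that sample. Among ungated cells it had counts in 4 of 21 in N2B27 (19%, 5.45 to 41.9%) and 15 of 22 in 2i (68.2%, 45.1 to 86.1%). Its ungated means of 41.5 and 76.0 gave a smaller ratio, -0.86, since 1 N2B27 ungated cell with 655 normalised counts held 75.2% of the sum. Without the highest cell of each sample the ungated ratio was -2.53. The direction was the same in both gates. Its ratio of -2.88 between N2B27 small and N2B27 ungated cells falls outside the rule for named genes and was noted after its value was seen. Med27 (70.1 against 214) and Med11 (175 against 398) were also lower in N2B27 small cells, with log2 ratios of -1.60 and -1.18, which were 0.96 and 0.52 in S phase cells.

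**Figure D5:**
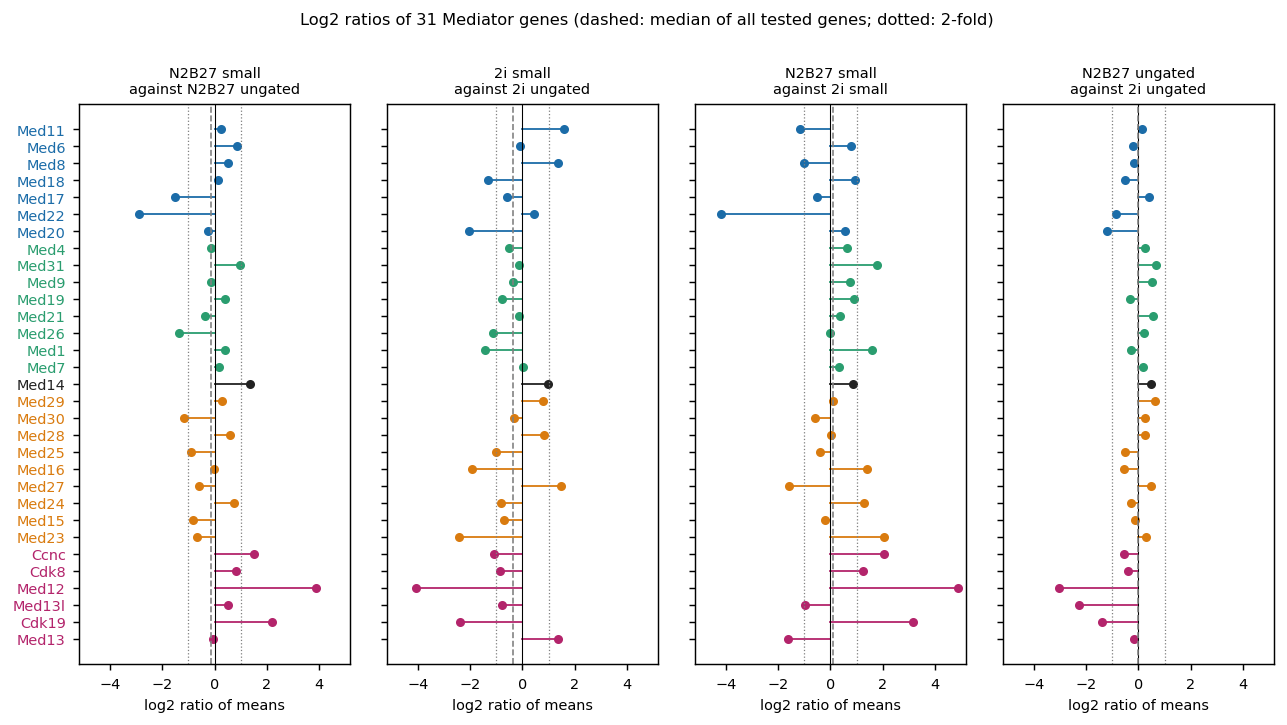
Log2 ratios of mean normalised counts for the 31 Mediator genes with a count in the 4 comparisons, coloured by module, with the median of all tested genes dashed and 2-fold dotted. Members spread to both sides in each comparison, the ungated comparison has the smallest spread apart from 3 kinase genes, and Med22 is lowest between small cells.

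Ungated cells, which had the most cells and the most like spike-in shares, differed least between media. Of 31 members 14 were higher and 17 lower in N2B27, with a median of -0.17 beside -0.03 for tested genes, of which 52% were lower. Past 2-fold were 0 higher and 4 lower members, beside 17.4% of tested genes and 27.9% of genes of like level. Of the 25 members with a mean of at least 20, only Med20 was past 2-fold. The 4 were Med12, Cdk19, Med13l and Med20. By the rule the lowest were Med13l (5.63 against 30.9, log2 ratio -2.27), Med20 (52.3 against 122, -1.21) and Med22 (-0.86). The highest were Med31 (158 against 99.0, 0.67), Med29 (165 against 107, 0.62) and Med21 (248 against 168, 0.56). Across both gates 15 of 31 members had the same direction between media, beside 52.4% of tested genes, and 12 without the 2i small cell of highest spike-in share. Med31 was among the 9 that were higher in both, with Med4, Med7, Med9, Med14, Med21, Med23, Med28 and Med29. Med8, Med13, Med13l, Med15, Med22 and Med25 were lower in both. Without that cell Med8, Med28 and Med29 were no longer among them.

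The core modules were also compared as groups. By module, 4 of the 7 head genes were higher in N2B27 small than in N2B27 ungated cells (median log2 ratio 0.14), 4 of the 8 middle genes with a count (0.04) and 3 of the 9 tail genes (-0.61). Of tested genes 55.2% were lower in that comparison, with a median of -0.12. In 2i the same gate gave 3 of 7 for the head (-0.10, and 4 of 7 with 0.016 without the cell of highest spike-in share), 1 of 8 for the middle (-0.44) and 3 of 9 for the tail (-0.71). Thus 57.1% of the head, 87.5% of the middle and 66.7% of the tail were lower in 2i. Of tested genes 61.9% were lower there, with a median of -0.36, so the head and tail shares lay near that of all genes. The tail had a lower median than the head in both media, but not under every alternative. The order turned in N2B27 with fixed limits on cells (head -0.21, tail -0.18) and with means of log2 values (-0.81 and -0.74), and in 2i with every sequenced cell (-0.071 and 0.24). Between ungated cells 2 of 7 head genes were higher in N2B27 (-0.19), 6 of 8 middle genes (0.23) and 5 of 9 tail genes (0.25). Beside these, 52% of tested genes were lower in N2B27, with a median of -0.03. With Med27 to Med30 counted with the head, as some structures place them, the gate gave medians of 0.14 in N2B27 and 0.44 in 2i for the head and of -0.66 and -1.01 for the tail.

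Med4, which anchors the middle module, had means of 257 in 2i small, 373 in 2i ungated, 402 in N2B27 small and 444 in N2B27 ungated cells. It had counts in 10 of 12, 22 of 22, 20 of 20 and 21 of 21 cells. Med6, a conserved head subunit, had means of 193, 208, 330 and 182 in the same order. Its N2B27 small mean was the highest of the 4, yet 1 cell with 1556 normalised counts held 23.6% of that sum. Med7 and Med9 of the middle had means of 40.1, 39.3, 50.4 and 44.0 and of 105, 134, 178 and 193. Their ratios stayed under 2-fold in all 4 comparisons. Med19, at the hook end of the middle, had 87.3, 152, 165 and 123, and Med18, the partner of Med20 in the head, had 58.8, 148, 113 and 103. Both were lowest in 2i small cells, with log2 ratios to 2i ungated of -0.79 and -1.32. Med15, the tail subunit that binds SREBP and SMAD factors, had means of 76.5, 126, 65.2 and 115, lower in both small samples. Med24 of the tail had 70.6, 127, 175 and 105, and 1 cell held 89.1% of its normalised counts in 2i small cells.

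Med13l, a paralog of Med13, had the lowest ratio by the rule between ungated samples. Its mean over the 4 samples was 15.6, under the minimum of 20, and it passed the rule only through its 2i ungated level. It had counts in 16 of 22 2i ungated cells (72.7%, interval 49.8 to 89.3%) and in 5 of 21 N2B27 ungated cells (23.8%, 8.22 to 47.2%), and in 14 and 5 cells after thinning. The ratio of -2.27 was past 2-fold with the same sign in 16 of 16 alternatives, from -2.94 to -1.76, but these reuse the same cells. A single cell held 39.7% of its normalised counts in 2i ungated. In small cells Med13l had counts in 4 of 12 cells in 2i and 4 of 20 in N2B27, with means of 17.4 and 8.48. Med13 had lower levels in 2i ungated cells (0.252 TPM against 1.94 TPM for Med13l) and was seen in 6 of 22 of them. In 2i ungated 5 cells held both and 11 held Med13l only, whereas in both N2B27 samples 0 cells held both.

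The kinase genes did not keep the same direction across comparisons. In N2B27, 5 of the 6 genes had higher means in small than in ungated cells, with a median log2 ratio of 1.15, where 55.2% of tested genes were lower. In 2i 5 of 6 were lower in small cells, with a median of -0.97, beside 61.9% of tested genes lower. Between small cells 4 of 6 were higher in N2B27 (median 1.64), where 46.9% of tested genes were lower. Between ungated cells 6 of 6 were lower in N2B27 (median -0.98), beside 52% of tested genes lower. With spike-in size factors 5 of 6 were higher in 2i small than in 2i ungated cells and 1 of 6 higher in N2B27 small than in 2i small cells. Only Ccnc reached a mean of 20 over the 4 samples, and the other 5 had counts in 1 to 16 cells of a sample. Without the highest cell of each sample, the N2B27 ratios of small to ungated cells were 3.62 for Med12, 0.15 for Med13 and -1.14 for Med13l. They were 2.32 for Cdk8, 0.62 for Cdk19 and 1.45 for Ccnc.

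Med12, which activates the kinase, had 4 counts in 2i small (exact Poisson interval 1.09 to 10.2), 551 in 2i ungated, 557 in N2B27 small and 37 in N2B27 ungated cells. These came from 1, 4, 4 and 1 cells. Cdk19 had 16, 156, 349 and 62 counts in 1, 6, 3 and 1 cells, and Cdk8 had 251, 655, 707 and 353 counts in 2, 6, 7 and 3 cells. Cdk8 thus had the higher level of the pair in all 4 samples, from 1.12 against 0.120 TPM in 2i small to 2.20 against 1.83 TPM in N2B27 small cells. Both kinases were found together in 1, 2, 1 and 0 cells. In 2i small cells all Med12 and Cdk19 counts came from the cell with 15712 genes detected. Med12l, the paralog of Med12 and not one of the 32 members, had 0 counts in both 2i samples (interval 0 to 3.69), 414 in 3 N2B27 small cells and 28 in 1 N2B27 ungated cell, and it was never in the same cell as Med12. With so few cells, neither absence of a gene from a cell nor exclusion between paralogs can be read at this depth.

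The partners of Mediator in transcription were described by the same ratios. The 12 subunit genes of RNA polymerase II had medians of 0.17 between small and ungated cells in N2B27 and 0.34 in 2i. Between media the medians were -0.03 in small and 0.07 in ungated cells. In that order 0, 4, 3 and 0 of these genes were past 2-fold, beside 29, 44.1, 41.5 and 17.4% of tested genes. The 18 genes of general factors had medians of -0.17, -0.31, -0.06 and -0.05 in the same order. For the 10 genes of pause release, among them Cdk9, the kinase that frees paused polymerase, they were -0.33, 0.05, -0.11 and -0.52. For 8 cohesin genes they were 0.41, 0.16, -0.30 and -0.18. Without the 2i small cell of highest spike-in share, the medians of pause release in the comparisons that use 2i small cells were -0.35 and 0.21, with the other sign. There 3 and 1 genes of the polymerase were past 2-fold, beside 37.1 and 35.6% of tested genes. In N2B27 7 of the 8 cohesin genes were higher in small cells, where 55.2% of tested genes were lower. Nipbl, which loads cohesin and binds Mediator, had a log2 ratio of 2.20 and Stag1 one of 1.28, whereas Mau2, the partner of Nipbl, had -0.69.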

How the data were processed

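Smart-seq2 libraries without molecular identifiers were made from single E14 mouse ES cells in 4 samples. The authors trimmed reads with Trim Galore 0.4.4, aligned them to GRCm38 with GSNAP and counted them on Ensembl release 81 genes with HTSeq. The deposited counts are whole numbers, not normalised by the authors, in a table per medium, and cells were matched to samples through the submitters' list of sequencing runs. Genes took 72.4% of counts, ambiguous reads 6.77% and ERCC spike-ins 3.85%. Rows that name no gene were left out.

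Cells were kept within 3 median absolute deviations per plate (scater 1.30.1), at lower limits of 307960 counts and 4435 genes in 2i and 1250614 counts and 5316 genes in N2B27, and upper limits of 5.16% and 4.67% mitochondrial counts. Doublets were not called. Size factors over 1227 genes with a count in every kept cell came from DESeq2 1.42.0 and phases from cyclone in scran 1.30.0 (R 4.3.3). Ratios are log2 of mean normalised counts with a pseudocount of 1. Ratios were computed in Python 3.11.15 with numpy 2.4.6, pandas 2.3.3 and scipy 1.17.1, and checked on simulated data. Symbols and exon lengths come from GENCODE M21. The members and lists were chosen with earlier results of these data known. Members described in full were the 3 with the largest ratio in each direction with a mean of at least 20 and a count in 50% of cells of the higher sample, together with the kinase module, Med14, Med1 and Med26. Genes of like level start at the lowest member with a count, since Med10 is listed at 0. With 1 sample per group there was no test. Alternatives varied cell filters, size factors, averaging, pseudocount, depth and the minimum mean, and 1 further alternative, leaving out 1 2i small cell, was added after the data were seen.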

Additional observations from a re-analysis of the deposited data

Results flagged for a closer look

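These results were picked out because a member moved at least 2-fold one way in one medium or gate and at least 2-fold the other way in the other, and the difference between the contrasts was not tested. The log2 ratio of Med12 between small and ungated cells was 3.88 in N2B27 and -4.07 in 2i, and between N2B27 and 2i it was 4.89 in small and -3.06 in ungated cells. That of Cdk19 was 2.19 in N2B27 and -2.37 in 2i, and 3.16 in small and -1.40 in ungated cells. Both genes had counts in 1 to 6 cells of a sample. The ratio of Ccnc between small and ungated cells was 1.50 in N2B27 and -1.10 in 2i. Without the 2i small cell of highest spike-in share the 2i ratio was -0.98, and Ccnc then no longer met this rule. In 2i the ratio of Ccnc kept its sign in 14 of 16 alternatives and was past 2-fold, in either direction, in 9. In N2B27 it was 0.08 over S phase cells alone.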

How the results depend on the processing

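No paired analysis was possible because each group had 1 sample. Of 176 summary values of the Mediator genes under alternatives, 156 stayed within their interval or within 1.5 times the value reported and 20 moved.

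The median ratio of the Mediator genes minus that of all tested genes was 0.31, -0.22, 0.47 and -0.14 in the order of the report. Over the alternatives it ran from -0.10 to 0.49, -0.50 to 0.28, -0.06 to 0.85 and -0.17 to 0.16, so the sign held under every alternative in none of the 4. It moved to 0.28 in 2i with spike-in size factors and to 0.85 between small cells with poscounts size factors. The number of Mediator genes past 2-fold went from 8 in N2B27 to 14 with poscounts or spike-in size factors or without the highest cell of each gene, and to 3 at a minimum mean of 100. In 2i it went from 14 to 8 with pooled counts, 22 with means of log2 values and 8 at a minimum mean of 100, and between small cells from 14 to 24 with spike-in size factors and 8 at the higher minimum. Between ungated cells it went from 4 to 11 in S phase cells, 8 with poscounts size factors, 11 with means of log2 values, 7 without the highest cell of each gene and 0 at the higher minimum. Those with the same direction in both media went from 17 to 9 with spike-in size factors. The median of all tested genes moved too, to 0.30 in N2B27 with poscounts size factors and to -1.36 in 2i with means of log2 values. Counts at a minimum mean of 100 cover only the members that reach it. The matching shares of tested genes are not given here, so these counts do not set the members against other genes. Thinning moved the share of Mediator genes detected to 74.7% in 2i ungated, 54.2% in N2B27 small and 60.7% in N2B27 ungated cells.

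Of 1344 ratios of single members under alternatives, 134 had the other sign than the value reported, 98 of them for values under 2-fold. The 36 for values past 2-fold follow. In S phase cells this held for Med26 in N2B27 (0.83), for Med8 (-1.51), Med26 (1.73), Med27 (-1.01) and Cdk19 (0.76) in 2i, and for Med8 (0.89), Med11 (0.52), Med12 (-0.14), Med13 (0.14) and Med27 (0.96) between small cells. With spike-in size factors it held for Med1 (0.33), Med20 (0.36), Med23 (0.41), Cdk19 (0.64) and Ccnc (1.26) in 2i, and for Med1 (-1.0), Med23 (-1.66), Med31 (-0.88), Cdk8 (-1.79), Cdk19 (-0.57) and Ccnc (-1.21) between small cells. With means of log2 values it held for Med8 (-1.59), Med11 (-0.10) and Med27 (-1.37) in 2i and for Med8 (0.92) and Med11 (0.017) between small cells. With every sequenced cell it held for Med13 (-0.066) and Ccnc (5.19) in 2i and for Med8 (0.47) and Ccnc (-4.03) between small cells. Between small cells Med8 was also 0.28 without the cell of highest spike-in share of each sample, 0.21 without that of 2i small only, 0.026 on CPM, 0.35 with pooled counts and 0.14 without its highest cells, where Med23 was -0.34. The cause was not tested. Spike-in size factors moved the median of all tested genes to -0.82 in N2B27, 0.79 in 2i, -1.56 between small and 0.05 between ungated cells.

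At 12 to 22 cells a sample, and with no replicate sample, differences in the kinase genes other than Ccnc rested on 1 to 16 cells with a count.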
